A study of Mus musculus with 6 samples.

Results

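The dystrophin-glycoprotein complex was examined at the RNA level through 8 genes (*Dmd*, *Utrn*, *Dag1*, *Sgca*, *Sgcb*, *Sgcd*, *Lama2* and *Cav3*), which were picked by symbol as core members and close partners of the complex from the 20632 genes of the deposited table. All 8 passed the filter on low counts, as did 12116 genes in all. The RNA came from whole hind limb muscles (tibialis anterior, extensor digitorum longus, gastrocnemius, soleus and quadriceps) of unexercised male C57BL/6 mice aged 3 months. The 3 control mice, labelled wild type, carried floxed *Baf155* without Cre (Baf155 WT). The other 3 mice, labelled *Baf155* -/-, carried floxed *Baf155* together with Cre driven by the muscle creatine kinase promoter (Baf155 ΔMF). Baf155 is a core subunit of the SWI/SNF chromatin remodelling complex. This Cre acts in myofibers and also in cardiac muscle. Satellite cells, fibroblasts, vessels, nerves and leukocytes of the same muscles would thus keep the gene, which was not measured in these cells. In such bulk RNA, fewer cells of a type and less RNA per cell cannot be told apart. The question for these genes was whether loss of Baf155 in myofibers changed the transcripts of the complex.

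The complex ties the actin skeleton beneath the myofiber membrane to the basement membrane outside it and protects the membrane during contraction. Dystrophin, encoded by *Dmd*, binds actin and the tail of β-dystroglycan. Dystroglycan is cut from the single product of *Dag1* and its α part carries sugar chains that bind laminin, of which *Lama2* encodes the main muscle chain. Sarcoglycans (*Sgca*, *Sgcb* and *Sgcd* here) span the membrane beside dystroglycan. Utrophin, encoded by *Utrn*, is the close relative of dystrophin. It is enriched at the neuromuscular junction of adult fibers, is also made in vascular cells, and can stand in for dystrophin in dystrophic muscle. *Cav3* encodes caveolin-3, the muscle caveolin, which associates with the complex at the membrane. Loss of dystrophin, sarcoglycans, laminin α2 or caveolin-3 causes inherited muscle disease.

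The members differed widely in gene structure, which bears on what a count per gene can show. In GENCODE M21 on GRCm38, *Dmd* spanned 2257272 bases of chromosome X (82948870 to 85206141, plus strand) with 79 exons in a longest transcript of 14910 bases. *Cav3* covered 13368 bases of chromosome 6 (112459505 to 112472872, plus strand) with 2 exons and a transcript of 1157 bases. *Utrn* (chromosome 10, 12382188 to 12869365), *Lama2* (chromosome 10, 26980036 to 27619758), *Dag1* (chromosome 9, 108204634 to 108263958), *Sgca* (chromosome 11, 94962791 to 94976327), *Sgcb* (chromosome 5, 73632749 to 73647790) and *Sgcd* (chromosome 11, 46896253 to 47988969) all lay on the minus strand. *Dag1* and *Cav3* overlapped no other annotated gene. *Sgca* shared its span with *Hils1* on the other strand, and *Dmd* with *Tsga8* on the other strand. The remaining overlaps of the 8 genes were with pseudogenes, small RNAs and other noncoding or unclassified entries.

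The RefSeq table of start sites held entries for all 8 genes, with 10 windows of 250 bases before a start. It listed a pair of starts for *Dmd*. One was the outer start of the gene, and the other lay in the intron between exons 62 and 63 and begins a short dystrophin form found in many tissues. The deposited value is 1 number per gene, so reads from the starts cannot be separated. Both windows (GRCm38.p6, plus strand) and that of *Cav3*, whose levels ran opposite to those of *Dmd* across the mice as described later, are shown 5′ to 3′. The capitals mark the only hit in these 3 windows of the 4 letter patterns searched on both strands.
*Dmd*, outer start, chrX:82948620-82948869: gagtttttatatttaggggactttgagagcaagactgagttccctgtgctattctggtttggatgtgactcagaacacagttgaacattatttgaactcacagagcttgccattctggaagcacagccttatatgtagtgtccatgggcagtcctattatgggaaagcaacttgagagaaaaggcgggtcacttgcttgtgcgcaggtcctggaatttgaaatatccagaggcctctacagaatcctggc
*Dmd*, intron start, chrX:85048045-85048294: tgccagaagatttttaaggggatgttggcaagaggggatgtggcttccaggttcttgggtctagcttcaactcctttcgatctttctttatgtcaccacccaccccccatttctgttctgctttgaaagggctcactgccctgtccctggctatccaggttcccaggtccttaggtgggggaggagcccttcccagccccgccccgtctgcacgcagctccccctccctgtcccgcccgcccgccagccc
*Cav3*, gene start, chr6:112459255-112459504: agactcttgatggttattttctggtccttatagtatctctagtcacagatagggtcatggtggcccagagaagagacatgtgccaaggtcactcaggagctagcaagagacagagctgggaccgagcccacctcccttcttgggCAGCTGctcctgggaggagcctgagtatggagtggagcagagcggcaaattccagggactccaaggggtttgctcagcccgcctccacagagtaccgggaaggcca
The patterns were CAGCTG (an E-box bound by muscle bHLH factors), TTCCGG (bound by ETS factors), TTCNNNGAA (bound by STAT factors) and ACGTG (bound by HIF factors). CAGCTG stood in 1 of the 10 windows, in *Cav3*, and in 13% of all 32851 windows of this length in the table. ACGTG stood in the windows of *Sgcd* and *Utrn*, with 16.6% of all windows holding it. TTCCGG and TTCNNNGAA were in none of the 10 windows and in 12% and 7.02% of all windows. The start listed for *Utrn* opened its longest transcript but was an internal exon of other annotated transcripts, so its window is not printed. It lay 7630 bases inside the outer start of the gene. The starts listed for *Sgcd* and *Lama2* lay 609644 and 2816 bases inside theirs. For these genes, the pattern counts therefore say nothing about the outer start.

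Total counts per mouse ranged from 8426022 to 12469335, and 3 counts, the smallest amount treated as a signal, equalled 0.23 to 0.351 CPM (read counts scaled to library size and normalized by TMM), which covers counting error only. The smallest count of any member in any mouse was 459 (*Cav3*), far above that floor. *Smarcc1*, which encodes Baf155, fell from 19.96 ± 3.25 to 7.10 ± 0.59 CPM (mean ± SD, n = 3 mice per genotype), a log2 fold change of -1.49 with an adjusted p of 0.00907 in edgeR. All 11 myofiber marker genes were detected. Their sum was 134622 to 139933 CPM in Baf155 WT and 128537 to 133227 CPM in Baf155 ΔMF mice, without overlap. Of the 11 genes, 6 had a log2 fold change above 0 and 5 below. The sample titles begin with MS13, MS14 or MS15, whose meaning the labels do not give. MS13 covers Baf155 WT mouse 1 and Baf155 ΔMF mice 1 and 2, MS15 covers Baf155 WT mice 2 and 3, and MS14 covers Baf155 ΔMF mouse 3. Outside MS13, prefix and genotype cannot be told apart.

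No member of the complex passed the test between genotypes. At an adjusted p under 0.05 in edgeR, 0 of the 8 genes were called, where 0.0248% of all genes tested were called (3 of 12116). At an unadjusted p under 0.05 the members again gave 0 calls, against 7.95% of all genes tested, and DESeq2 and limma-voom also called 0 members at an adjusted p under 0.05. The Baf155 WT and Baf155 ΔMF mice overlapped in all 8 genes, while 10.8% of all genes tested did not overlap between genotypes. The members' log2 fold changes (Baf155 ΔMF over Baf155 WT) ran from -0.10 to 0.31, with 6 above 0 and 2 below, and their median was 0.11 against -0.00095 over all genes tested. The smallest unadjusted p was 0.0718, for *Dmd*.

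**Figure D1:**
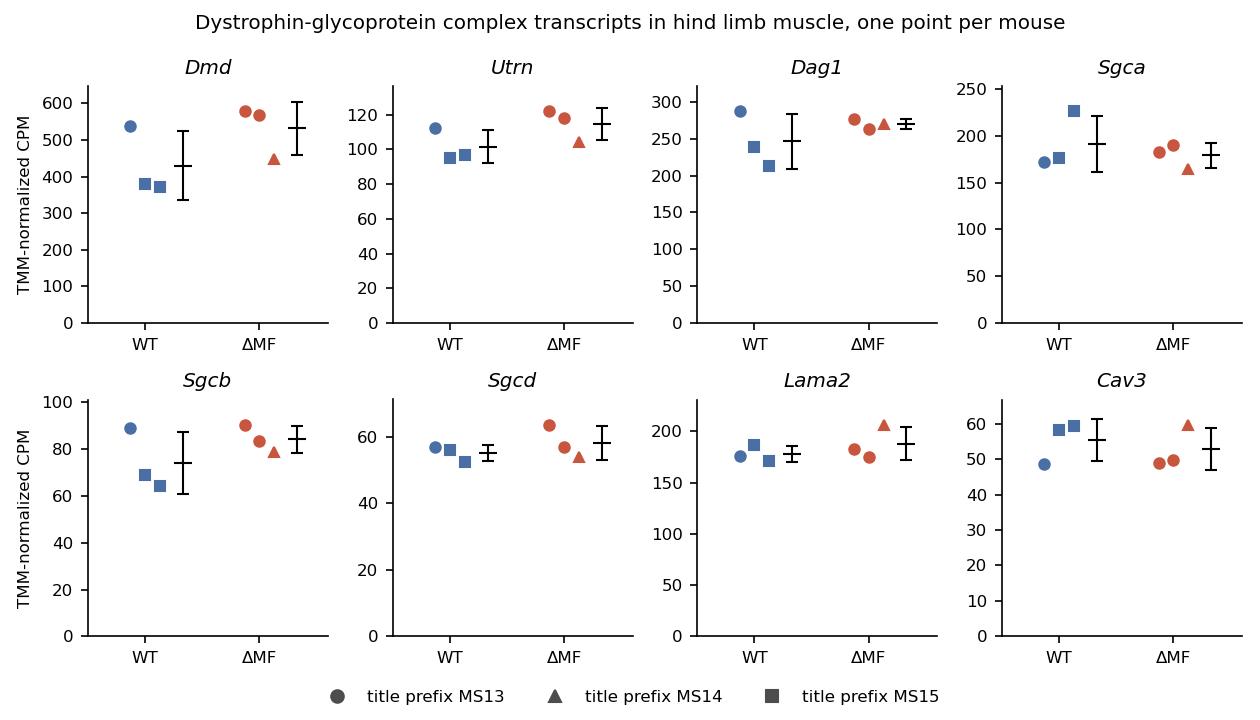
Level of each of the 8 genes in each mouse, in TMM-normalized CPM on linear axes from 0. Blue points are Baf155 WT and red points Baf155 ΔMF mice, point shapes give the title prefix, and the black bars are the mean ± SD of 3 mice. For *Dmd*, the circles (MS13) lie between 538 and 578 CPM in both genotypes and the other 3 mice between 371 and 447 CPM.

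*Dmd* had the largest estimated difference of the 8. It was at 538, 381 and 371 CPM in Baf155 WT mice 1, 2 and 3 and at 578, 569.7 and 447 CPM in Baf155 ΔMF mice 1, 2 and 3. Baf155 WT mouse 1 was above Baf155 ΔMF mouse 3, so the genotypes overlapped. The means were 429.9 ± 93.6 and 532 ± 73.3 CPM, and the log2 fold change was 0.31 ± 0.15 (standard error), or a fold of 1.24 with a 95% interval of 0.978 to 1.57 (adjusted p = 0.622 in edgeR). The *Dmd* estimate differed from a whole number by more than 1e-06 reads in 5 of the 6 mice. This happens when reads that match several genes are divided among them. The number of reads so divided was not measured, so the size of this uncertainty is unknown. Between the MS13 mice alone the log2 difference was 0.094. Without Baf155 WT mouse 1 it was 0.50, with an adjusted p of 0.0154 in edgeR. That fit left MS15 mice as the only controls, so prefix and genotype cannot be told apart in it. It called 955 of the 12288 genes it tested.

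*Utrn* stood at 113, 95.1 and 96.9 CPM in Baf155 WT mice and at 122, 118 and 104 CPM in Baf155 ΔMF mice. Again only Baf155 WT mouse 1 reached into the range of the Baf155 ΔMF mice. Its log2 fold change was 0.18 ± 0.10 (fold 1.13, 95% interval 0.969 to 1.32, adjusted p = 0.643 in edgeR). Since the pair can partly replace each other as proteins, *Utrn* was also set against *Dmd* within each mouse. There were 20.9, 24.99 and 26.1 *Utrn* reads per 100 *Dmd* reads in Baf155 WT mice, and 21.1, 20.7 and 23.3 in Baf155 ΔMF mice. The lowest ratios belonged to the 3 MS13 mice of both genotypes. The means were 24.0 ± 2.72 and 21.7 ± 1.401 reads, a log2 difference of -0.14 with p = 0.3 in a two-sided exact permutation test over 20 assignments of the mice, which cannot give a p under 0.10. Scaled by transcript length, *Utrn* was at 28.9 ± 3.27 per 100 *Dmd* in Baf155 WT muscle and 26.1 ± 1.69 in Baf155 ΔMF muscle. Summed endothelial markers (5 of 5 tested, none at 0) were at 201 to 255 CPM in Baf155 WT and 258 to 285 CPM in Baf155 ΔMF mice, and the part of vascular cells in the *Utrn* values was not tested.

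*Dag1* and *Lama2*, the dystroglycan and laminin side of the link, showed small estimated differences. *Dag1* was at 287, 239 and 213 CPM in Baf155 WT mice and at 277, 264 and 271 CPM in Baf155 ΔMF mice, so that the Baf155 ΔMF values lay inside the range of the controls. Its log2 fold change was 0.13 ± 0.11 (95% interval -0.12 to 0.38, adjusted p = 0.733 in edgeR). *Lama2* was at 176, 186 and 171 CPM in Baf155 WT mice and at 183, 175 and 206 CPM in Baf155 ΔMF mice. Only Baf155 ΔMF mouse 3 exceeded the controls. The log2 fold change of *Lama2* was 0.080 ± 0.095 (95% interval -0.13 to 0.29, adjusted p = 0.817 in edgeR). Removing a trend with gene length turned *Lama2* to -0.047, and adding the title prefix as a covariate turned *Dag1* to -0.087.

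The sarcoglycans did not share 1 direction. *Sgcb* was at 89.1, 68.9 and 64.1 CPM in Baf155 WT mice and at 90.2, 83.4 and 78.5 CPM in Baf155 ΔMF mice, with Baf155 WT mouse 1 among the values of the Baf155 ΔMF mice. Its log2 fold change was 0.18 ± 0.12 (95% interval -0.088 to 0.46, adjusted p = 0.683 in edgeR). Without Baf155 WT mouse 1, which leaves MS15 mice as the only controls, it was 0.34 with an adjusted p of 0.0402 in edgeR. It was -0.038 once the title prefix was a covariate. *Sgcd* was at 56.9, 56.1 and 52.3 CPM in Baf155 WT mice and at 63.5, 56.9 and 53.8 CPM in Baf155 ΔMF mice, and the genotypes overlapped. The log2 fold change of *Sgcd* was 0.076 ± 0.094 (95% interval -0.13 to 0.28, adjusted p = 0.823 in edgeR). *Sgca* was at 172, 177 and 226 CPM in Baf155 WT mice and at 183, 191 and 165 CPM in Baf155 ΔMF mice, where Baf155 WT mouse 3 stood above all others. Its log2 fold change was -0.10 ± 0.12 (95% interval -0.36 to 0.16, adjusted p = 0.823 in edgeR). It became 0.12 once the title prefix was a covariate, and 0.040 without Baf155 WT mouse 3.

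*Cav3* was at 48.6, 58.3 and 59.3 CPM in Baf155 WT mice and at 49.0, 49.6 and 59.6 CPM in Baf155 ΔMF mice. The values fell near 49 in the MS13 mice and near 59 in the other mice, with both genotypes at each level. This was a log2 fold change of -0.073 ± 0.11 (95% interval -0.32 to 0.17, adjusted p = 0.861 in edgeR). It turned to 0.022 when the prefix entered as a covariate and, separately, when a length trend was removed.

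**Figure D2:**
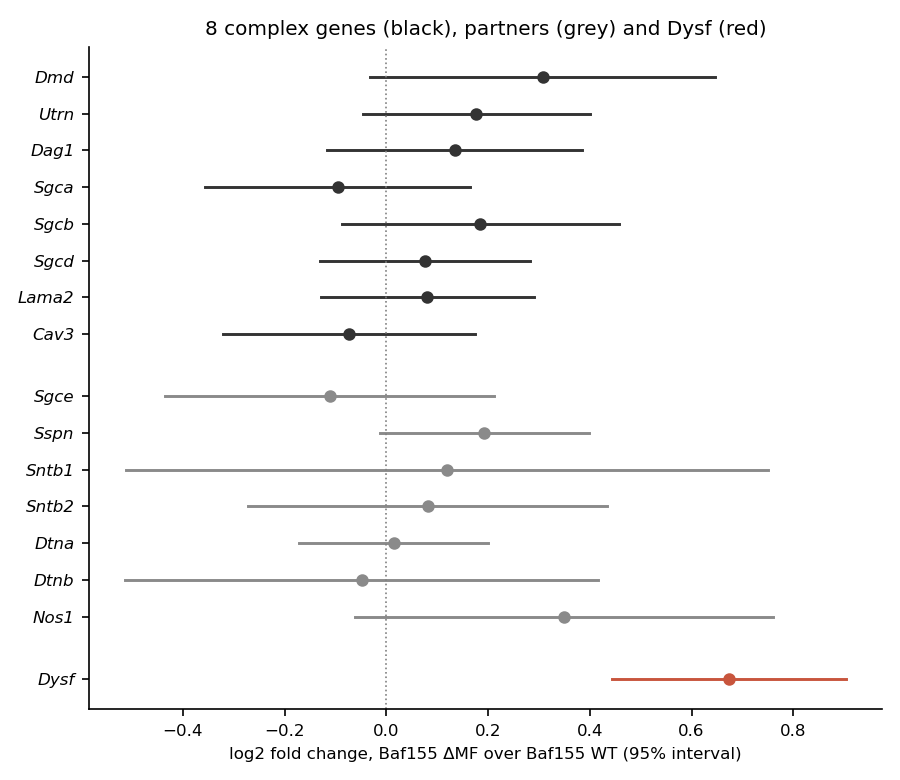
Log2 fold change of Baf155 ΔMF over Baf155 WT with its 95% interval from edgeR (n = 3 mice per genotype), for the 8 genes (black), 7 further genes of the complex (grey) and *Dysf* (red). The intervals of all black and grey genes include 0, and that of *Dysf* runs from 0.44 to 0.90.

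Per kilobase of the longest transcript, only the highest and the lowest member had a range over the 6 mice that was clear of its neighbour's. *Sgca* was highest at 108 ± 12.7 CPM per kb (mean ± SD over 6 mice), and its lowest mouse (95.4) was above the highest mouse of any other member. *Cav3* (46.7 ± 4.77) and *Dag1* (45.7 ± 4.87) followed, with overlapping ranges, and then *Dmd* at 32.3 ± 6.28 CPM per kb. *Sgcd* (23.1 ± 1.58), *Sgcb* (20.9 ± 2.82) and *Lama2* (19.0 ± 1.33) came next, and the ranges of *Dmd* and these 3 overlapped from each gene to the next. *Utrn* was lowest at 8.73 ± 0.90 CPM per kb, and its highest mouse (9.85) lay under the lowest *Lama2* mouse (17.8). *Dmd* also varied most between mice, with the highest value 1.56 times the lowest, whereas this ratio was 1.21 for *Lama2* and *Sgcd*. These levels use 1 transcript per gene, so reads from shorter forms such as those of *Dmd* are divided by a length that is too large.

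The levels of most members followed the title prefix. In 5 of the 8 genes, the 3 MS13 mice did not overlap the other 3 mice, where 27.4% of all genes tested were separated in this way. *Dmd* was at 538 to 578 CPM in MS13 mice and at 371 to 447 CPM in the others. *Utrn* was at 113 to 122 against 95.1 to 104 CPM, and *Sgcb* at 83.4 to 90.2 against 64.1 to 78.5 CPM. *Sgcd* was at 56.9 to 63.5 CPM in MS13 mice against 52.3 to 56.1 CPM in the others, a gap that closed under upper-quartile scaling and with the library size only. *Cav3* had the opposite order, at 48.6 to 49.6 CPM in MS13 mice and 58.3 to 59.6 CPM in the others. With the library size only, *Lama2* was also lower in all MS13 mice. Within MS13, where a single control faces 2 Baf155 ΔMF mice, the median log2 difference of the 8 genes between genotypes was 0.051.

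**Figure D3:**
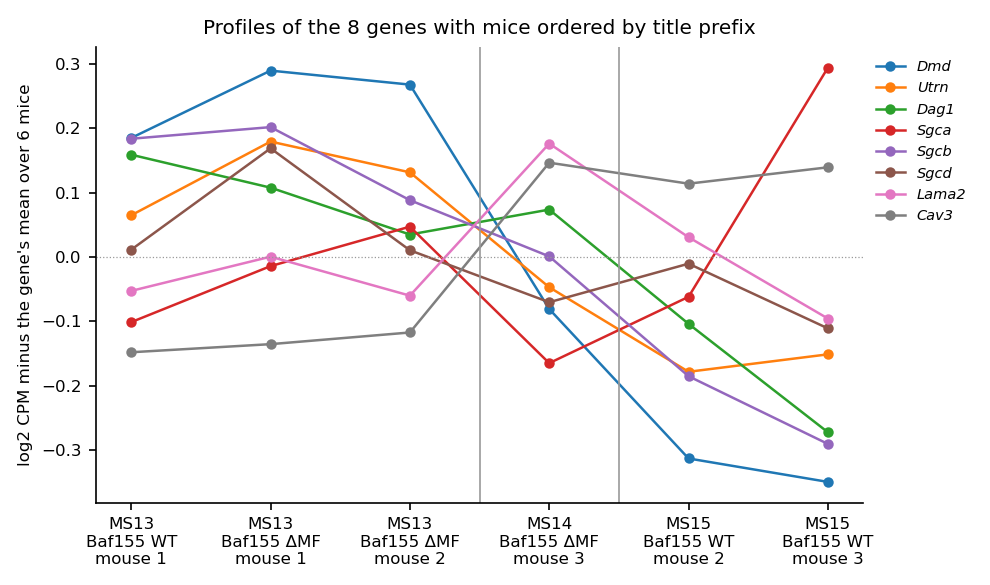
Log2 CPM of each of the 8 genes minus its mean over the 6 mice, with mice ordered by title prefix and vertical lines between prefixes. *Dmd*, *Utrn* and *Sgcb* lie higher in the 3 MS13 mice than in the other 3, and *Cav3* lies lower.

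Summed markers of some other cell types also differed along the prefix. Summed macrophage and leukocyte markers (5 of 5 tested) were at 58.1 to 60.5 CPM in MS13 mice and at 89.3 to 175 CPM in the other mice. Fibro-adipogenic and fibroblast markers (5 of 5 tested) were at 1415 to 1575 against 1910 to 2148 CPM, markers of regenerating fibers (4 of 4) at 24.6 to 25.7 against 32.6 to 44.3 CPM, and adipocyte markers (3 of 3) at 25.2 to 31.2 against 37.5 to 62.5 CPM. Summed Schwann cell markers (4 of 4 tested) were higher in MS13 mice, at 29.9 to 35.6 against 23.0 to 27.8 CPM. Taken singly, fewer markers separated MS13 from the other mice. These were 4 of 5 macrophage and leukocyte, 3 of 5 fibro-adipogenic and fibroblast, and 2 of 4 regenerating fiber markers. So were 1 of 3 adipocyte and 3 of 4 Schwann cell markers, where 27.4% of all genes tested were separated. Summed myofiber (11 of 11), endothelial (5 of 5), satellite cell (3 of 3), smooth muscle (3 of 3) and blood (5 of 7) markers overlapped between MS13 and the other mice. No tested marker was at 0 in all mice, and the part of these cells in the members' values was not tested. By genotype, the 5 macrophage and leukocyte markers summed to 60.5 to 175 CPM in Baf155 WT and 58.1 to 89.3 CPM in Baf155 ΔMF mice. Endothelial sums were 201 to 255 against 258 to 285 CPM, and myofiber sums 134622 to 139933 against 128537 to 133227 CPM. Only these endothelial and myofiber sums did not overlap between genotypes. At an unadjusted p under 0.05 in edgeR, 5 of 5 macrophage and leukocyte markers were lower in Baf155 ΔMF mice. So were 3 of 5 tested blood, 2 of 5 fibro-adipogenic and fibroblast, 1 of 3 adipocyte and 1 of 4 regenerating fiber markers. Higher were 2 of 5 endothelial, 2 of 11 myofiber and 1 of 4 regenerating fiber markers. Of all genes tested, 7.95% passed this limit. The macrophage and leukocyte median log2 fold change was -0.88 (-0.13 within MS13). No marker passed after adjustment. Singly, 2 of 5 endothelial and 3 of 11 myofiber markers had no overlap between genotypes, against 10.8% of all genes tested. The 2 endothelial markers were higher in Baf155 ΔMF mice. Of the 3 myofiber markers, 2 were higher and 1 was lower there, although the myofiber sum was lower.

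Genes with the profile most like *Dmd* were sought among 7714 genes with a mean of at least 10 CPM, by the root mean square difference of centred log2 CPM over the 6 mice. The nearest were *Syncrip* (0.026), *Sema5a* (0.034) and *Upf2* (0.037). Of the other members, *Sgcb* was nearest to *Dmd* (rank 218, difference 0.105) and *Utrn* next (rank 438, difference 0.132). *Cav3* was the farthest, at rank 6605. For *Utrn*, the nearest genes were *Kif13a* (0.011), *Synm*, which encodes the intermediate filament protein synemin (0.016), and *Med1*, a Mediator subunit (0.017). *Dmd* ranked 2366 from *Utrn*. This measure counts the size of a gene's swing between mice as well as its direction. The SD of centred log2 CPM was 0.29 for *Dmd* and 0.15 for *Utrn*. All 6 of these nearest genes were higher in the MS13 mice than in the other 3, which their choice by likeness to *Dmd* or *Utrn* already fixed.

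The rest of the complex showed the same lack of calls. Of 10 further genes (other sarcoglycans, sarcospan, syntrophins, dystrobrevins and neuronal nitric oxide synthase), 7 were tested. *Sgcz* had no counts, and *Sntg1* and *Sntg2* had too few. None of the 7 had an adjusted or an unadjusted p under 0.05 in edgeR, 5 were above 0 and 2 below, and the median log2 fold change was 0.081. *Sspn*, which encodes sarcospan, was the only one of the 7 whose genotypes did not overlap, against 10.8% of all genes tested. It was at 87.0, 79.0 and 86.5 CPM in Baf155 WT mice and 103, 97.0 and 87.8 CPM in Baf155 ΔMF mice. Its log2 fold change was 0.19 ± 0.093, with an unadjusted p of 0.0633 and an adjusted p of 0.622 in edgeR. *Nos1*, whose muscle product is anchored to the complex, was at 115, 72.5 and 62.1 CPM in Baf155 WT mice and 109.7, 96.9 and 111 CPM in Baf155 ΔMF mice. Baf155 WT mouse 1 was the highest of all 6. The log2 fold change of *Nos1* was 0.35 ± 0.19 (adjusted p = 0.633 in edgeR), and it was -0.16 between the MS13 mice. Without Baf155 WT mouse 1, which leaves MS15 mice as the only controls, it was 0.65 with an adjusted p of 0.00158 in edgeR. The syntrophins *Sntb1* and *Sntb2* had log2 fold changes of 0.12 and 0.081. The dystrobrevins *Dtna* and *Dtnb* had 0.014 and -0.049, and the sarcoglycan *Sgce* had -0.11. The signs of all these genes but *Sspn* turned under at least 1 alternative.

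Genes that build the sugar chains of α-dystroglycan gave no call after adjustment. Of 19 listed, 18 were tested, 5 were above 0 and 13 below, with a median log2 fold change of -0.075. At an unadjusted p under 0.05, 2 of the 18 were lower in Baf155 ΔMF muscle and 0 higher, where 7.95% of all genes tested passed this limit, and the same 2 were the only ones without overlap, where 10.8% of all genes had none. Such shares are near those of all genes. The 2 were *Pomt2*, a protein O-mannosyltransferase subunit, and *B4gat1*, a glucuronyltransferase. *Pomt2* was at 16.8, 18.1 and 16.8 CPM in Baf155 WT mice and at 14.8, 13.8 and 13.3 CPM in Baf155 ΔMF mice, without overlap. The log2 fold change of *Pomt2* was -0.30 ± 0.11, with an unadjusted p of 0.0183 and an adjusted p of 0.601 in edgeR. Its estimate was fractional in all 6 mice, as was that of *Tln2*, and those of *Nos1* and *B3galnt2* were in 5. The caveat given for *Dmd* applies to these values too, and its size was not measured. *B4gat1* was at 24.6, 26.9 and 26.5 against 22.4, 19.3 and 23.6 CPM, also without overlap. The log2 fold change of *B4gat1* was -0.26 ± 0.11, with an unadjusted p of 0.0393 and an adjusted p of 0.611 in edgeR. Both kept their sign in all 17 alternatives and lay lower in Baf155 ΔMF mice within MS13, by log2 differences of -0.23 and -0.24. *B3galnt2*, the most abundant of the list, had a log2 fold change of 0.040.

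On the matrix side, all 14 basement membrane genes were tested, with a median log2 fold change of 0.054, 9 above 0 and no adjusted call. *Col4a2*, a collagen IV chain, was at 141, 118 and 112 CPM in Baf155 WT mice and at 152, 146 and 178 CPM in Baf155 ΔMF mice, without overlap. Its log2 fold change was 0.36 ± 0.11, with an unadjusted p of 0.00865 and an adjusted p of 0.601 in edgeR. It was the only one of the 14 genes with an unadjusted p under 0.05, a share no larger than the 7.95% of all genes tested. Its partner chain *Col4a1* had a log2 fold change of 0.21, also without overlap (10.8% of all genes), and *Hspg2*, which encodes perlecan, had 0.16. Between the MS13 mice these differences were 0.086, 0.060 and -0.18. The 14 integrin linkage genes, a second route from actin to laminin, held no gene at an unadjusted p under 0.05, and their median log2 fold change was 0.030. *Fermt2* (kindlin-2), *Tln2* (talin-2) and *Flnc* (filamin C) had log2 fold changes of 0.16, 0.14 and 0.26, and that of *Flnc* was -0.10 between the MS13 mice.

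**Figure D4:**
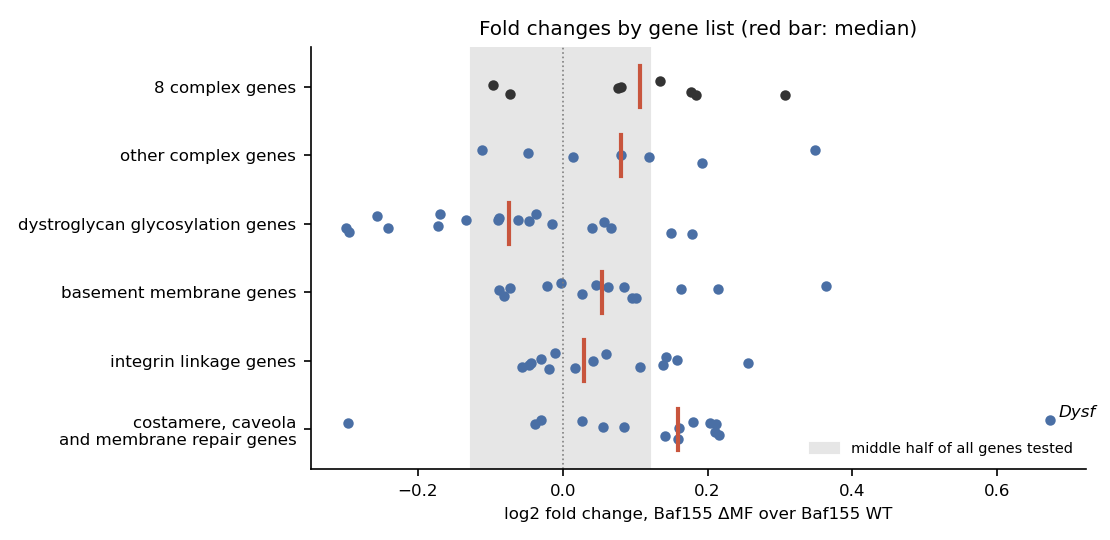
Log2 fold changes of the tested genes of each list, one point per gene, with the list's median as a red bar and the range between the lower and upper quartiles of all genes tested (-0.13 to 0.12) in grey. The 8 complex genes have their median at 0.11, and *Dysf* stands apart at 0.67.

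Among the members and the 5 related lists, the smallest p belonged to *Dysf*, which encodes dysferlin, a membrane repair protein outside the complex. It was at 67.9, 62.6 and 52.8 CPM in Baf155 WT mice and at 100.2, 92.2 and 99.98 CPM in Baf155 ΔMF mice. Every Baf155 ΔMF mouse was above every Baf155 WT mouse, where 10.8% of all genes tested did not overlap between genotypes. In log2 terms this was 0.67 ± 0.10, or a fold of 1.59 with a 95% interval of 1.36 to 1.87, and the p of 4.86e-05 became 0.0785 after adjustment in edgeR. The adjusted p over all alternatives ran from 0.000205 (DESeq2) to 0.416 (without Baf155 ΔMF mouse 1). Between the MS13 mice the log2 difference was 0.50. The list of costamere, caveola and membrane repair genes had 15 of 17 genes tested, with 12 above 0. Its median log2 fold change was 0.16 (-0.030 within MS13). *Dysf* was the only one of the 15 at an unadjusted p under 0.05, a share no larger than the 7.95% of all genes tested. *Prkcdbp*, which encodes cavin-3, had -0.30, and *Des*, which encodes desmin and was the most abundant of the list, had -0.038.

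The estimates of the 8 complex genes changed with the fit. With the title prefix as a covariate, which leaves the contrast between the MS13 mice, the members lay between -0.087 and 0.12. With a length trend removed, *Dmd* was at 0.14 and *Utrn* at 0.022. Without Baf155 WT mouse 1, the Baf155 WT group held MS15 mice alone. In that fit, 2 members (*Dmd* and *Sgcb*) had an adjusted p under 0.05 in edgeR, as did 955 of all 12288 genes it tested.

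**Figure D5:**
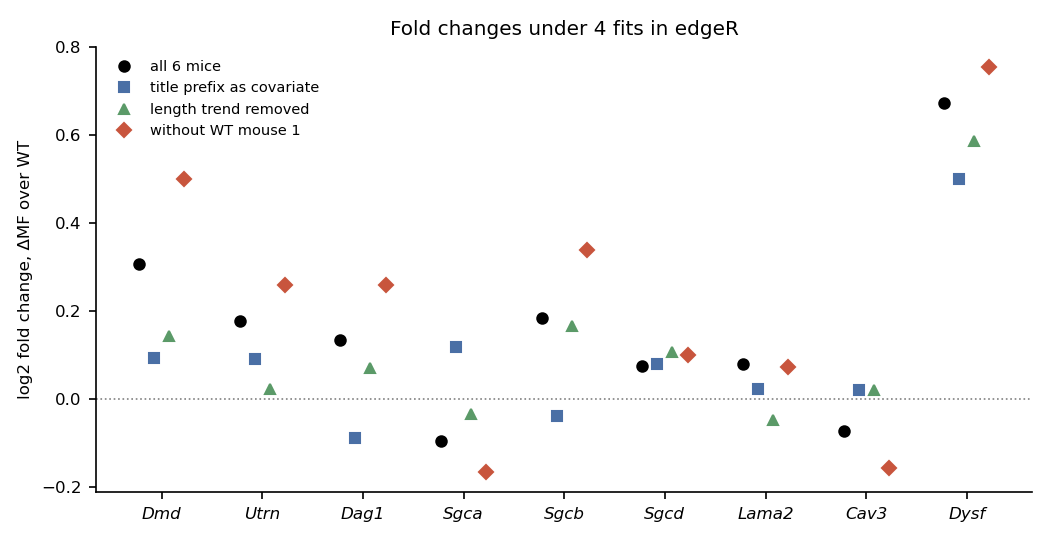
Log2 fold change of Baf155 ΔMF over Baf155 WT for the 8 genes and *Dysf* under 4 fits in edgeR: all 6 mice (circles), title prefix as a covariate (squares), length trend removed (triangles) and without Baf155 WT mouse 1 (diamonds). *Dmd* ranges from 0.094 to 0.50 and *Dysf* from 0.50 to 0.75.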

How the data were processed

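The authors deposited an expected count (an estimated number of reads, not normalized) per gene symbol for each of 6 mice, from stranded total RNA libraries. Per the labels, the submitters' processing notes list CASAVA 1.8.2, cutadapt 1.10, Bowtie2 2.2.7, TopHat2 2.1.1, RSEM 1.2.30 and the build mm10 (GRCm38). They also name limma, without a version or a stated model. RSEM divides reads between genes that share sequence.

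Rounded expected counts went into edgeR 4.0.16 (R 4.3.3), with filterByExpr at a minimum count of 10 and a total of 15, TMM scaling and the quasi-likelihood F test on genotype alone. Adjusted p-values are Benjamini-Hochberg values over 12116 genes. Errors of log2 fold changes are standard errors, and others are SDs. CPM are TMM-normalized, and centred log2 CPM used a prior count of 2. The comparison was tested on simulated data. Symbols were matched to GENCODE M21 (20542 of 20632).

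Members and gene lists were chosen with earlier results of these data known. Some genes of the complex are not reported here. Genes named outside the complex were the tested genes of its further list, the smallest 2 p-values and the highest mean CPM of each other list, and the 3 nearest profiles to *Dmd* and *Utrn*. Each fit was repeated with DESeq2 1.42.0 and with voom in limma 3.58.1, and in edgeR with other scalings and filters, a robust fit, the title prefix as a covariate, length or GC trends removed, and each mouse left out.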

Additional observations from a re-analysis of the deposited data

How the results depend on the processing

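The log2 fold changes of the 8 complex genes were computed under 17 alternatives each. Of these 136 values, 127 kept both their direction and their lack of a call, 7 turned direction and 2 became calls. *Dmd*, *Utrn* and *Sgcd* kept their direction throughout. With the title prefix as a covariate, *Dag1* was at -0.087, *Sgca* 0.12, *Sgcb* -0.038, *Cav3* 0.022, *Sgce* 0.016, *Sntb1* -0.20, *Sntb2* -0.087, *Nos1* -0.16, *Hspg2* -0.18, *Flnc* -0.10 and *Des* 0.050. With a length trend removed, *Lama2* was at -0.047, *Cav3* 0.022, *Sntb2* -0.049, *Dtna* -0.069 and *Tln2* -0.016. With the library size only, *B3galnt2* was at -0.023 and *Dtna* -0.049, where the median of all genes was -0.064. *Dtna* was also at -0.00028 with upper-quartile scaling and at -0.0080 with a GC trend removed. Leaving out single mice, *Sgca* ran from -0.17 to 0.040, *Sntb1* from -0.15 to 0.25, *Sntb2* from -0.11 to 0.20, *Dtna* from -0.026 to 0.043, *Dtnb* from -0.23 to 0.079, *Hspg2* from -0.016 to 0.26 and *Des* from -0.081 to 0.015. The cause of these turns was not tested.

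At an adjusted p under 0.05, edgeR called 3 genes in all, with 17 calls for all genes of at least 1 count, 16 with the title prefix as a covariate, 22 in DESeq2 and 5 in limma-voom. Calls ran from 0 to 955 when single mice were left out. The 2 such fits with 0 calls, without Baf155 WT mouse 2 or Baf155 ΔMF mouse 2, still gave 451 and 568 genes with an unadjusted p under 0.05. Called members numbered 0 to 2 over these fits, with both calls (*Dmd* and *Sgcb*) in the fit without Baf155 WT mouse 1, the one control with the MS13 prefix. Genes of the 5 pathway lists with a call numbered 0 to 7. The 7 were *Ank2*, *Col4a2*, *Dysf*, *Flnc*, *Nos1*, *Plec* and *Sdpr*, in the fit without Baf155 WT mouse 1. That fit called 955 of all 12288 genes it tested, so these 7 are not a result about the lists. *Dysf* was the 1 call with all genes of at least 1 count and in DESeq2. *Smarcc1* missed the threshold without Baf155 WT mouse 2, Baf155 ΔMF mouse 1 or Baf155 ΔMF mouse 2 (adjusted p = 0.0616, 0.0533 and 0.0678 in edgeR). The log2 difference of *Utrn* to *Dmd* stayed below 0, from -0.24 to -0.0030 (MS13 mice alone).

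No paired analysis was possible because the labels tie no Baf155 ΔMF mouse to a Baf155 WT mouse, and the replicate numbers used here follow accession order. With 3 mice per genotype, the 95% interval of *Dmd* reached a fold of 1.57 although its lowest count was 3825.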
